A study of Caenorhabditis elegans with 12 samples.

Results

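Alpha and beta tubulin pair into the dimer that microtubules are built from, and animals carry several genes for each. In Caenorhabditis elegans 10 such genes were examined here: the alpha genes tba-1, tba-2, tba-4, tba-5, tba-6 and tba-9 and the beta genes tbb-1, tbb-2, tbb-4 and tbb-6. They were taken by name from the gene annotation of the WBcel235 genome, with no use of their levels, although earlier results of these data were known. They are 10 of the 46926 genes in the count table. All 10 passed the filter on low counts. The genes tba-1, tba-2, tba-5 and tba-6 (WBGene00006528, WBGene00006529, WBGene00006531 and WBGene00006532) lie on chromosome I. In WBcel235 coordinates, tba-4 (WBGene00006530) lies at II:10918706-10920211 on the plus strand, tbb-1 (WBGene00006536) at III:10740868-10742432 and tbb-2 (WBGene00006537) at III:4015910-4017627, both on the minus strand. The gene tba-9 (WBGene00006535) lies at X:3252800-3256269 on the plus strand, tbb-4 (WBGene00006538) at X:9434452-9436893 on the minus strand, and tbb-6 (WBGene00006539) at V:12261531-12263368 on the plus strand. The annotated exons of the longest transcript number 3 in tba-1, tba-4 and tbb-1, 4 in tba-2 and tbb-2, 5 in tbb-6, 6 in tba-5, 7 in tbb-4 and 9 in tba-6 and tba-9.

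Microtubules form the mitotic and meiotic spindle, the tracks for transport along axons and dendrites, and the axoneme, the microtubule core of a cilium. In the worm tba-1, tba-2, tbb-1 and tbb-2 are the broadly expressed isotypes and supply the spindle of the germ line and early embryo. Cilia are found in the worm only on sensory neurons, where tba-5 and tbb-4 contribute to the axoneme and tba-6 and tba-9 are expressed in sets of ciliated neurons. The gene tbb-6 encodes a divergent beta isotype, and a reporter of it is known to be switched on by mitochondrial stress through the p38-type kinase PMK-3. Below, tba-4 is listed with the broad isotypes.

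The study measured poly-A RNA of whole worms, grown from purified eggs at 20 °C and labelled larval stage 4, in 3 strains with 4 libraries each. The wild type was N2, and the labels name the libraries of the TDP-43 strain CK410 and those of the TDP-43dNLS strain NLS151. The TDP-43 strain carried Psnb-1::TDP-43 with the marker Pmyo-2::dsRED, and the TDP-43dNLS strain carried Psnb-1::TDP-43(K82A/R83A/K84A), altered at the nuclear localization signal, with the marker Pmyo-3::dsRED. TDP-43 is a mostly nuclear RNA-binding protein found in cytoplasmic aggregates of neurons in diseases such as amyotrophic lateral sclerosis. The snb-1 promoter, from the gene for synaptobrevin, drives expression in neurons, whereas the RNA came from all tissues, and the marker promoters act in the pharynx (myo-2) and in body wall muscle (myo-3). The labels give no further allele and do not say whether a strain is 1 line or whether its 4 libraries came from separate cultures, and the p-values below cover the spread among these libraries only, which may be technical.

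Libraries held 20671982 to 26910097 counts, of which the 10 genes took 0.294 to 0.416%. Within every strain the libraries differed in transcripts of oocytes. CPM scales each count to its library's total over the genes past the filter, adjusted by edgeR's TMM scaling factor. The mean level of 20 oocyte and eggshell genes was 8.37 to 9.61 log2 CPM in 8 libraries. It was 2.54, 3.74, 2.04 and 4.17 log2 CPM in replicate 4 of wild type, replicate 4 of TDP-43 and replicates 3 and 4 of TDP-43dNLS. These 4 libraries, under 6 on that scale, are called oocyte-poor below. The adult cuticle collagen gene col-19 stood at 1.24 to 481 CPM in them and at 1569 to 3314 CPM in the other 8, and the summed level of 15 pan-neuronal genes was 2262 to 2672 against 1040.2 to 1738 CPM. Abundant oocyte transcripts and this collagen are adult features, although all 12 libraries carry the larval label. Reads at T10H9.10, an annotated non-coding RNA gene upstream of snb-1, followed the genotype labels, with 0 CPM in each wild type library and 1.15 to 7.09 CPM in the 8 transgenic ones. Values are set side by side for the 8 and the 4 libraries as a description with no test, because the division was drawn from the RNA itself. It was wide: 46.9% of the 16637 genes tested did not overlap between the 8 and the 4, and 22.3% were higher in all 4. In whole-worm RNA, fewer cells of a type and less RNA per cell cannot be told apart.

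Per length, the 10 genes spanned a wide range (the plot of levels per length). In RPKM, which is CPM per kilobase of annotated exon, means over the 12 libraries were 701 ± 154 for tba-2 and 699.7 ± 72.8 for tbb-2 (SD, n = 12). The gene tba-1 followed at 376 ± 52 RPKM and tbb-1 at 352 ± 81 RPKM, then tba-4 at 78.5 ± 36.5 RPKM. Of the alpha members, tba-2, tba-1 and tba-4 thus held nearly all the RNA, and of the beta members tbb-2 and tbb-1. Tubulin genes outside the 10 are not in these values. Among them the alpha gene mec-12 held 83.8 to 274 CPM and the beta gene mec-7 52.1 to 218 CPM, beside 68.4 to 229 CPM for tba-4. All other members lay far lower: tbb-6 at 9.49 ± 7.06 RPKM, tba-9 at 5.92 ± 1.15 RPKM, tbb-4 at 5.73 ± 2.77 RPKM, tba-5 at 2.48 ± 1.3 RPKM and tba-6 at 1.08 ± 0.592 RPKM. The order held in every library between tbb-2 and tba-1, between tbb-1 and tba-4, between tba-4 and tbb-6, and between tbb-4 and tba-5. Neighbours whose levels crossed were tba-2 and tbb-2 (tba-2 above in 6 of 12 libraries), tba-1 and tbb-1 (5 of 12), tbb-6 and tba-9 (8 of 12), tba-9 and tbb-4 (8 of 12), and tba-5 and tba-6 (11 of 12). Tubulin genes are close copies of each other, so reads from shared stretches could have been assigned to the wrong member.

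**Figure D1:**
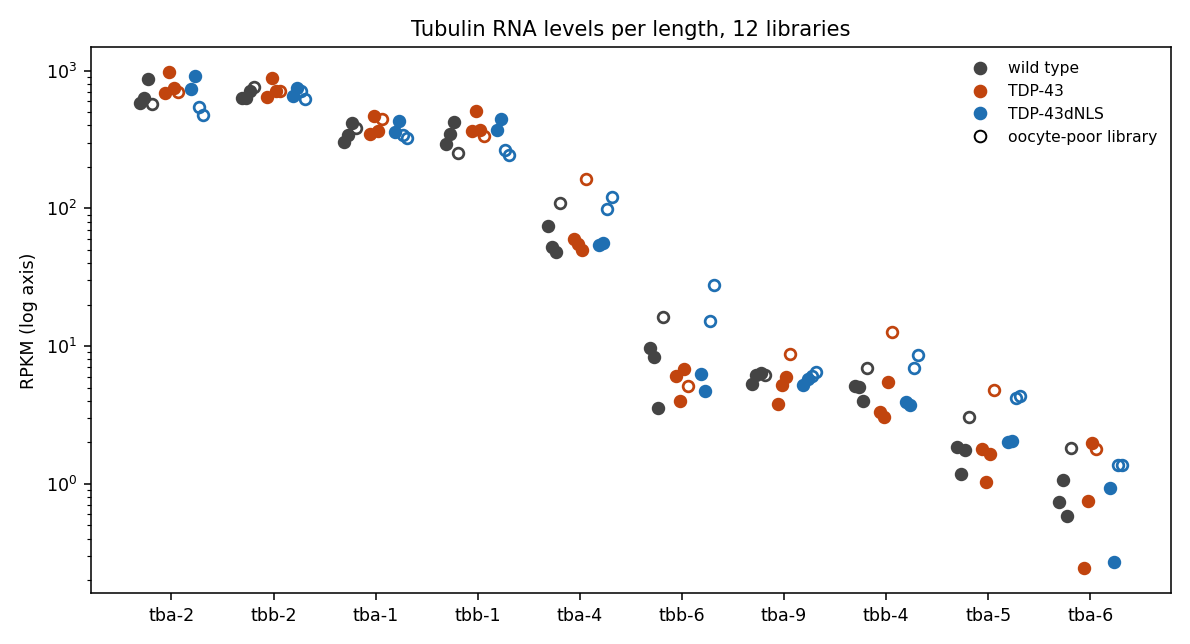
RPKM on a log axis for each of the 10 genes, ordered by mean, with 1 point per library coloured by strain and open points for the 4 oocyte-poor libraries. The broad isotypes tba-2, tbb-2, tba-1 and tbb-1 lie between 242 and 973 RPKM, and tba-6 between 0.243 and 1.97 RPKM.

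Among the broad isotypes, the alpha gene tba-2 stood at 978, 1053, 1445 and 958 CPM in the wild type libraries (replicates 1 to 4), at 1149, 1632, 1246 and 1179 CPM in those of TDP-43 and at 1242, 1519, 908 and 792 CPM in those of TDP-43dNLS. The oocyte-poor libraries of wild type and TDP-43dNLS were at the low end, and the 3 strains overlapped. Across the 8 other libraries the range was 978 to 1632 CPM, against 792 to 1179 CPM in the 4 oocyte-poor ones. The beta gene tbb-1 followed the same course. In wild type the 4 libraries held 434, 508, 623 and 369 CPM of tbb-1, in TDP-43 they held 534, 746, 544 and 496 CPM, and in TDP-43dNLS 549, 655, 391 and 356 CPM. TDP-43 replicate 2 was highest, wild type replicate 4 and TDP-43dNLS replicates 3 and 4 were lowest, and the strains overlapped. The range was 434 to 746 CPM in the 8 libraries and 356 to 496 CPM in the 4.

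The other pair of broad isotypes differed less between the 8 libraries and the 4. The wild type libraries held 458, 519, 628 and 579.6 CPM of tba-1, those of TDP-43 held 525, 711, 551 and 674 CPM and those of TDP-43dNLS 541, 652, 516 and 489.9 CPM. The oocyte-poor libraries lay inside the range of the other 8, and the ratio of the median of the 8 to that of the 4 was 0.997, against 1.33 for tba-2. Among the 8 libraries alone, tba-1 was nonetheless at 458 CPM in wild type replicate 1, the lowest of them in the oocyte list, and at 711 CPM in TDP-43 replicate 2, the highest in it. The beta gene tbb-2 stood at 958, 951, 1080.2 and 1149 CPM in the wild type libraries (replicates 1 to 4), at 981, 1326, 1075 and 1082 CPM in those of TDP-43 and at 985, 1123, 1068 and 936 CPM in those of TDP-43dNLS. This was the steadiest of the 10 genes, with a highest library 1.42 times the lowest and a ratio of medians of 0.958. Within the 8 libraries, all 4 genes were lowest in wild type replicate 1 or 2 and highest in TDP-43 replicate 2.

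The gene tba-4 ran the other way. In wild type the 4 libraries held 104.1, 73.4, 68.4 and 153 CPM of tba-4, in TDP-43 they held 84.2, 77.9, 70.1 and 229 CPM, and in TDP-43dNLS 76.9, 79.3, 139 and 172 CPM. In each strain the oocyte-poor libraries were the highest. They held 139 to 229 CPM and the other 8 held 68.4 to 104.1 CPM, with no overlap. This and the ciliary genes tbb-4 and tba-5 below were the 3 of 10 members without overlap, beside 46.9% of all genes. On the log2 scale TDP-43 replicate 4, the highest of all 12, stood clear of the 3 other TDP-43 libraries.

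**Figure D2:**
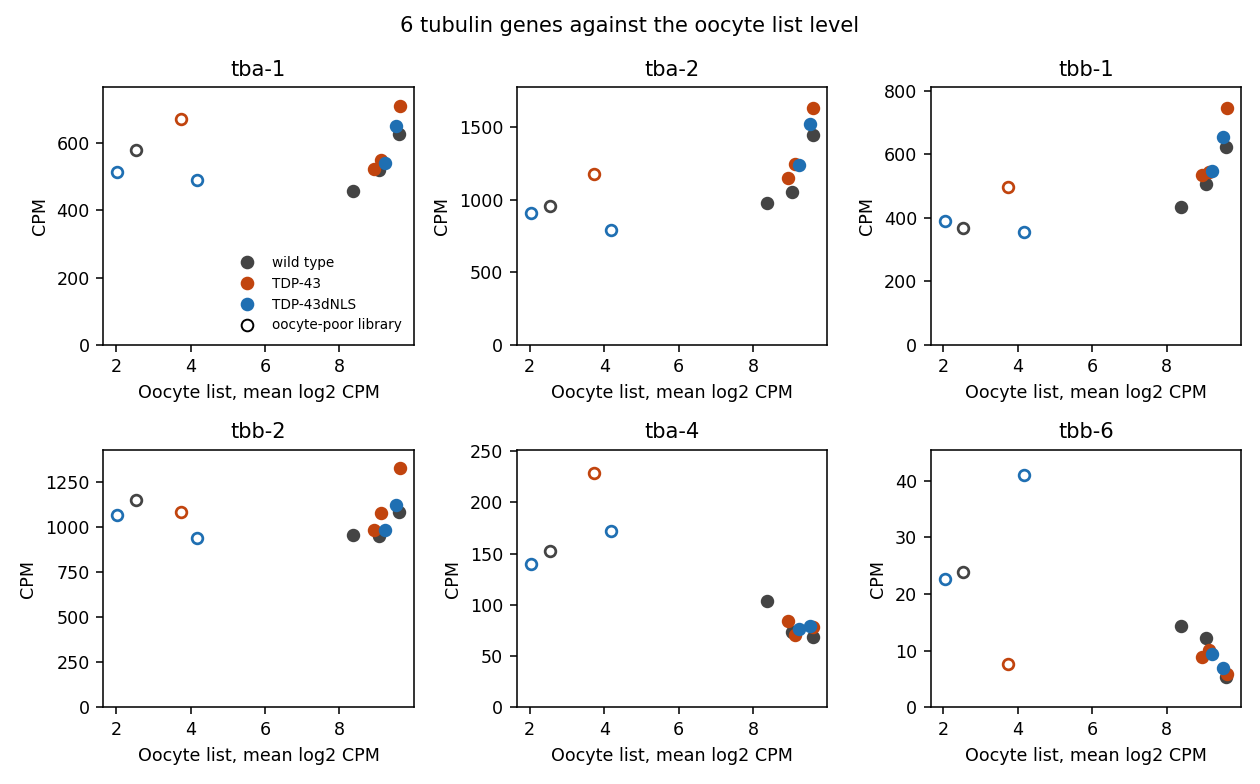
CPM of tba-1, tba-2, tbb-1, tbb-2, tba-4 and tbb-6 (vertical axes) against the mean log2 CPM of the 20 oocyte and eggshell genes (horizontal axes), 1 point per library, open for the 4 oocyte-poor libraries. The open points of tba-4 lie at 139 to 229 CPM, above all filled points, whereas those of tba-1 lie within the range of the filled points.

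The ciliary isotypes were rare in whole-worm RNA. Together tba-5, tba-6, tba-9 and tbb-4 summed to 14.9 to 24.3 CPM in the 8 libraries and 29.2 to 45.6 CPM in the 4 oocyte-poor ones. The axonemal beta gene tbb-4 stood at 8.0, 7.85, 6.23 and 10.8 CPM in the wild type libraries (replicates 1 to 4), at 5.16, 4.76, 8.64 and 19.9 CPM in those of TDP-43 and at 6.11, 5.85, 10.8 and 13.4 CPM in those of TDP-43dNLS. TDP-43 replicate 4 was the highest, and the oocyte-poor libraries (10.8 to 19.9 CPM) did not overlap the other 8 (4.76 to 8.64 CPM). The axonemal alpha gene tba-5 stood at 3.37, 2.16, 3.19 and 5.6 CPM in the wild type libraries (replicates 1 to 4), at 3.28, 1.87, 2.99 and 8.75 CPM in those of TDP-43 and at 3.68, 3.72, 7.69 and 7.83 CPM in those of TDP-43dNLS. The oocyte-poor libraries again lay above all others, at 5.6 to 8.75 against 1.87 to 3.72 CPM.

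The ciliated-neuron gene tba-9 had the smallest spread of the ciliary isotypes, with a highest library 2.31 times the lowest. The wild type libraries held 8.58, 10.1, 10.3 and 9.98 CPM of tba-9, those of TDP-43 held 6.14, 8.47, 9.73 and 14.2 CPM and those of TDP-43dNLS 8.46, 9.33, 9.89 and 10.5 CPM. All libraries lay between 6.14 and 14.2 CPM, with TDP-43 replicate 1 lowest and TDP-43 replicate 4 highest, and the oocyte-poor libraries overlapped the rest. For tba-6, the rarest member, the wild type libraries held 1.12, 1.63, 0.889 and 2.76 CPM, those of TDP-43 held 0.369, 1.14, 2.99 and 2.69 CPM and those of TDP-43dNLS 1.41, 0.409, 2.08 and 2.07 CPM. Its lowest library, TDP-43 replicate 1, had 9 counts (0.369 CPM, exact Poisson 95% interval 0.169 to 0.70 CPM, for counting error only). Within TDP-43 the highest library, replicate 3, lay above that interval, and the strains overlapped. The exons of tba-5 share 46 bases with rsd-6 and those of tba-6 share 75 bases with F32H2.6, both on the opposite strand; whether strand was used in counting is not given in the sources used here.

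A list of 43 genes of cilia and intraflagellar transport, the motor-driven traffic that builds cilia, was compared as a sum. At most 1 of the 43 had 0 counts in a library. Its genes did not all go the same way. The gene hyls-1 stood at 20.0 to 48.3 CPM in the 8 libraries and 10.3 to 12.8 CPM in the 4 oocyte-poor ones. As for the ciliary isotypes, the list's sum was higher in the 4 (291 to 331 CPM) than in the 8 (168 to 218 CPM). The pan-neuronal list given above was higher beside it in the same 4 libraries, and the part of any change in cell or germ line content in these values was not tested.

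The divergent isotype tbb-6 varied the most after tba-6, with a highest library 7.77 times the lowest. In wild type the 4 libraries held 14.4, 12.2, 5.28 and 23.9 CPM of tbb-6, in TDP-43 they held 8.97, 5.9, 10.2 and 7.61 CPM, and in TDP-43dNLS 9.32, 7.0, 22.6 and 41.1 CPM. TDP-43dNLS replicate 4 was the highest, and wild type replicate 4 and TDP-43dNLS replicate 3 came next. These are 3 of the 4 oocyte-poor libraries, and the remaining one, TDP-43 replicate 4, lay within the range of the 8 others (5.28 to 14.4 CPM). Among the 4 oocyte-poor libraries tbb-6 ranged over 7.61 to 41.1 CPM.

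Isotype composition was compared within libraries, as shares of RPKM, which do not depend on how libraries are scaled. The share of tbb-1 in tbb-1 plus tbb-2 was 31.8, 35.5, 37.3 and 24.8% in the wild type libraries, 35.9, 36.7, 34.3 and 32.1% in those of TDP-43 and 36.5, 37.5, 27.4 and 28.2% in those of TDP-43dNLS. The lowest library of each strain was an oocyte-poor one, and the strains overlapped. Counting error on the same share of raw counts was at most 0.523 percentage points on either side of the interval's centre (Wilson 95% interval), well under the spread within a strain. The share of tba-1 in tba-1 plus tba-2 was 32.2 to 35.3% in the 8 libraries and 38.5 to 40.6% in the 4 oocyte-poor ones, with no overlap. Likewise tba-4 made up 3.64 to 7.64% against 9.98 to 13.1% of the alpha members, and the 4 ciliary isotypes 0.347 to 0.68% against 0.853 to 1.17% of all 10 genes. Over the 10 genes the ratio of summed alpha to summed beta RPKM stayed near 1. This ratio was 1.03 to 1.17 in the 8 libraries and 0.999 to 1.24 in the 4. That RNA ratio is not a measure of protein.

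Between strains the libraries overlapped in each of these 5 measures. The share of tbb-1 averaged 32.4 ± 5.49% over the wild type libraries, 34.7 ± 2.04% over those of TDP-43 and 32.4 ± 5.36% over those of TDP-43dNLS (SD, n = 4). The ciliary share averaged 0.678 ± 0.14%, 0.655 ± 0.371% and 0.769 ± 0.321% in the same order, and the alpha to beta ratio 1.07 ± 0.0645, 1.12 ± 0.0823 and 1.08 ± 0.0784. The ciliary share differed by -0.0228 percentage points between TDP-43 and wild type and by 0.0913 between TDP-43dNLS and wild type, with exact two-sided permutation p = 0.886 and 0.629. Over the 15 exact two-sided permutation tests (5 measures, 3 comparisons) p ranged from 0.40 to 1.0 and every adjusted p was 1. The smallest p that 4 against 4 libraries allow is 0.0286. After adjustment over the 15 tests, a lone comparison with fully separated strains could not have passed the threshold used for genes below. The adjusted values therefore cannot decide whether a single measure differed. The unadjusted values show only that no comparison reached full separation.

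**Figure D3:**
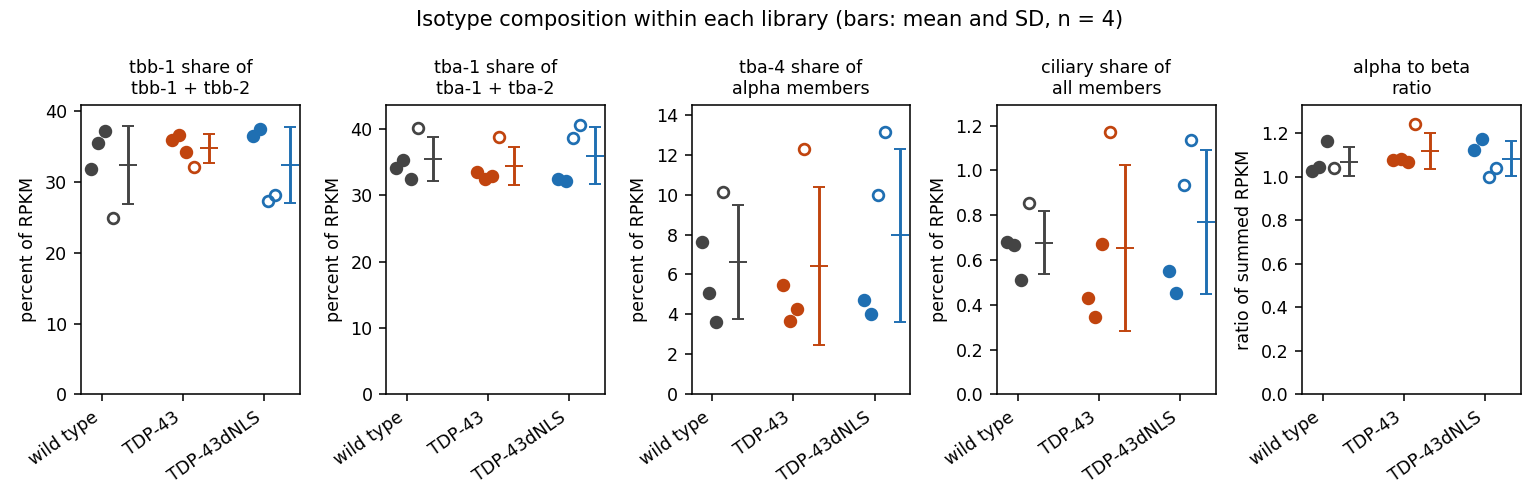
Isotype composition by strain: the share of tbb-1 in tbb-1 plus tbb-2, of tba-1 in tba-1 plus tba-2, of tba-4 in the alpha members and of the ciliary isotypes in all members (percent of RPKM), and the ratio of alpha to beta RPKM. Points are libraries (open: oocyte-poor), bars the mean and SD of 4; in the panels of tba-1, tba-4 and the ciliary isotypes every open point lies above all filled ones.

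Ratios between single isotypes were compared after the values were seen, and their order depended on which libraries were used. Over the 12 libraries the RPKM ratio of tba-2 to tbb-1 ranged over 1.82 to 2.28, the highest 1.25 times the lowest and the narrowest of the 6 ratios among the 4 most abundant genes. For tba-1 to tbb-2 (0.478 to 0.622) the highest was 1.3 times the lowest, and for tba-2 to tba-1 (1.46 to 2.11) 1.44 times. The widest was tbb-2 to tbb-1 (1.66 to 3.02), at 1.82 times. In the 8 libraries alone the narrowest was tba-1 to tbb-1, at 1.11 times, then tba-2 to tbb-1 at 1.12, tba-2 to tba-1 at 1.15 and tba-1 to tbb-2 at 1.22. In the 4 oocyte-poor libraries tba-2 to tba-1 was narrowest, at 1.09 times, then tba-2 to tbb-1 at 1.17, tba-1 to tbb-1 at 1.19 and tba-1 to tbb-2 at 1.29.

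Each strain comparison is between whole strains, so the TDP-43 transgenes, the dsRED markers and other differences between lines cannot be told apart. In TDP-43 against wild type, 0 of the 10 tubulin genes passed an adjusted p under 0.05 in edgeR's quasi-likelihood test over 16637 genes. The background was 0.00601%: 1 gene was called in all. The DESeq2 Wald test also called 0 of the 10, and 21 of all genes. With the replicate number as a block, which treats same-numbered libraries as paired, edgeR called 0 genes over the 12 libraries. A block over the wild type and TDP-43 libraries alone, added after seeing the data, called 22 genes, and 0 of the 10 members passed in either. At an unadjusted p under 0.05, 0 of the 10 passed against 1.83% of all genes, and for 0 of the 10 did the strains' libraries not overlap, against 1.65%. Differences on the log2 scale were 0.26 ± 0.24 (SE) for tbb-1, 0.23 ± 0.23 for tba-2, 0.17 ± 0.17 for tba-1 and 0.11 ± 0.14 for tbb-2, TDP-43 minus wild type. For tba-4 the difference was 0.21 ± 0.44, and for the ciliary genes 0.24 ± 0.53 (tba-5), 0.23 ± 0.49 (tbb-4), 0.16 ± 0.69 (tba-6) and -0.014 ± 0.29 (tba-9). The gene tbb-6 had the farthest value from 0, -0.77 ± 0.58, with an edgeR adjusted p of 0.9999. The 95% intervals ran from -0.20 to 0.41 for tbb-2 to -1.34 to 1.67 for tba-6, the narrowest and the widest. Differences inside these intervals could not be told from 0 at this spread.

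TDP-43dNLS against wild type, the comparison for the form altered at its nuclear localization signal, likewise gave 0 of 10 in edgeR, beside a background of 0% (0 of 16637 genes), and 0 of 10 in DESeq2, beside 16 of all genes. At an unadjusted p under 0.05 the counts were 0 of 10 and 1.45% of all genes, and libraries did not overlap for 0 of 10 and 1.32%. The 4 abundant isotypes had differences of 0.0086 ± 0.17 (tba-1), 0.0091 ± 0.23 (tba-2), 0.012 ± 0.24 (tbb-1) and -0.0092 ± 0.14 (tbb-2), TDP-43dNLS minus wild type. For tbb-2 the 95% interval, -0.31 to 0.30, was the narrowest of the 10. Among the others tba-5 stood at 0.68 ± 0.53, tbb-6 at 0.52 ± 0.57, tba-4 at 0.23 ± 0.44, tbb-4 at 0.14 ± 0.49, tba-9 at -0.027 ± 0.29 and tba-6 at -0.10 ± 0.69. Both comparisons share the wild type libraries.

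Between the transgenic strains the edgeR count was again 0 of 10, with a background of 0%, and the DESeq2 count 0 of 10, beside 8 of all genes. At an unadjusted p under 0.05, 1 of the 10 passed against 2.57% of all genes, and for 0 of the 10 did the strains' libraries not overlap, against 1.77%. That gene was tbb-6, with a difference of 1.29 ± 0.58 (TDP-43dNLS minus TDP-43), a 95% interval of 0.022 to 2.56, an unadjusted edgeR p of 0.0467 and an adjusted p of 0.998. The difference was 0.67 without TDP-43dNLS replicate 4 and -0.043 in the 8 libraries alone. The other members ranged from -0.27 ± 0.69 (tba-6) to 0.44 ± 0.53 (tba-5).

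A term for the 4 oocyte-poor libraries, added to the same edgeR fit, left 0 of 10 members past the threshold in each comparison, beside backgrounds of 0.0962%, 0.0541% and 0.00601% in the order above. The unadjusted p was under 0.05 for 0 of 10 in each, beside 6.28%, 5.2% and 4.41% of all genes. It narrowed the standard error of tba-4 in TDP-43 against wild type from 0.44 to 0.18, and its difference stood at 0.092 ± 0.18. For tbb-1 in that comparison the difference was 0.28 ± 0.16, and for tbb-6 in TDP-43dNLS against TDP-43 it was 0.65 ± 0.46. The term is defined from expression and is a description rather than a second designed test.

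**Figure D4:**
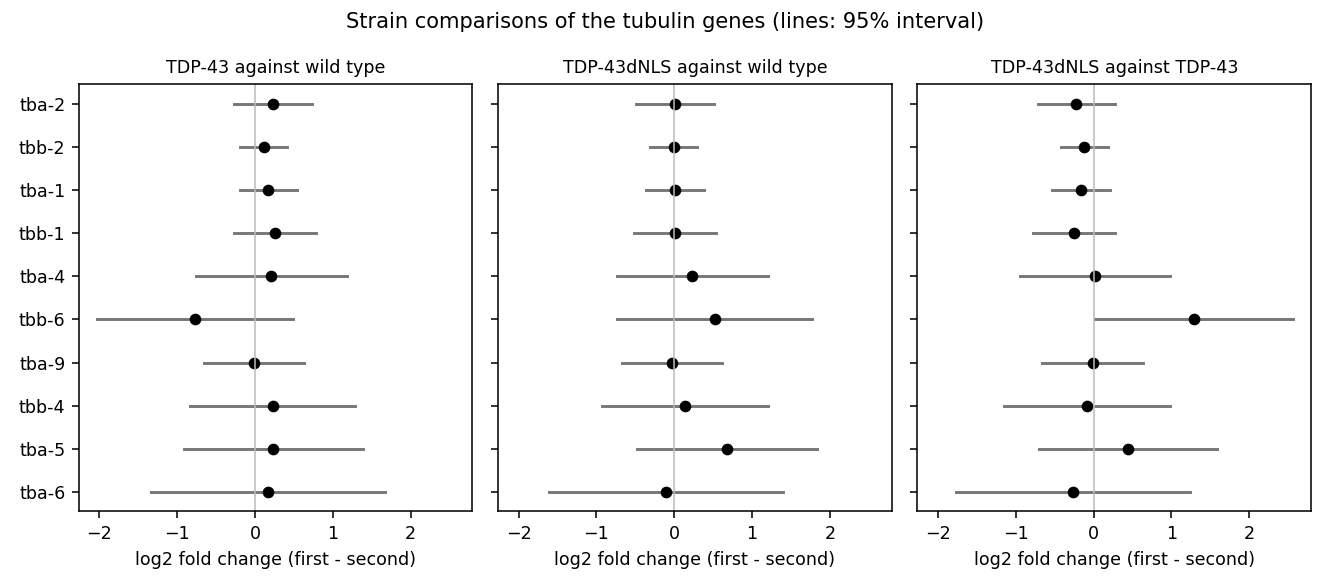
Log2 fold changes of the 10 genes (points) with 95% intervals (lines) from the edgeR fit over 12 libraries, for TDP-43 against wild type, TDP-43dNLS against wild type and TDP-43dNLS against TDP-43; the vertical line marks 0. The interval of every gene covers 0 except that of tbb-6 in the last panel, 0.022 to 2.56, whose adjusted p was 0.998.

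Genes that act with tubulin were described by lists, and 0 genes of the folding, modification, binding, cilia and pan-neuronal lists below passed the edgeR threshold in any of the 3 comparisons. At an unadjusted p under 0.05 none of them passed in that fit either. Medians over all genes tested were 0.016, -0.0056 and -0.0049 on the log2 scale for TDP-43 against wild type, TDP-43dNLS against wild type and TDP-43dNLS against TDP-43, and 0.011, 0.013 and -0.011 with the term for the oocyte-poor libraries. Of the 16637 genes tested, 8629, 8183 and 8239 had positive differences in these comparisons, and 8497, 8576 and 8095 with the term. Genes of a list were measured in the same libraries and are not independent, so counts of positive genes are a description. The folding list held the CCT chaperonin, which folds tubulin, prefoldin, which delivers it, and the tubulin cofactors. In TDP-43 against wild type 16 of 19 folding genes had positive differences with TMM scaling and the median was 0.065. The cofactor A gene tbca-1 stood at 0.29 ± 0.35, the prefoldin gene pfd-3 at 0.13 ± 0.25 and the chaperonin gene cct-8 at 0.11 ± 0.23. For TDP-43dNLS 3 of 19 were positive against wild type (median -0.080) and 2 of 19 against TDP-43 (median -0.16). There the chaperonin genes cct-2 and cct-5 stood at -0.18 ± 0.17 and -0.16 ± 0.16. With the term for the oocyte-poor libraries 16, 9 and 4 of 19 folding genes were positive in the 3 comparisons (medians 0.079, -0.0081 and -0.12), so the one-sided count against wild type in TDP-43dNLS was not kept. Summed, the 19 folding genes held 2634 to 3353 CPM in the 8 libraries and 2331 to 3263 CPM in the 4 oocyte-poor ones.

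Of the 11 listed genes that modify tubulin, 9 passed the filter, and their medians were -0.015, 0.084 and 0.094. With the term for the oocyte-poor libraries these medians were -0.059, -0.13 and -0.053, so those of TDP-43dNLS turned sign. The lowest p in TDP-43 against wild type belonged to ccpp-6, which encodes an enzyme of the deglutamylase family that trims the glutamate side chains of tubulin, at -1.38 ± 0.72 (unadjusted edgeR p 0.0797), a gene at 0.215 and 0.567 mean CPM. Its relative ccpp-1 stood at 0.14 ± 0.23, and mec-17, which encodes an alpha tubulin acetyltransferase, at 0.24 ± 0.53. Of 21 genes that bind, organise or sever microtubules, 15, 10 and 7 had positive differences, with medians of 0.10, -0.013 and -0.18. With the term the counts were 15, 15 and 10 of 21 and the medians 0.15, 0.12 and -0.0048, so the second median turned sign. An unadjusted edgeR p under 0.05 was then reached by 3, 1 and 0 of the 21, beside 6.28%, 5.2% and 4.41% of all genes. It was reached by 1, 0 and 0 of 9 modification genes, 1, 2 and 0 of 42 cilia genes and 0 of 19 folding genes. None of these passed the adjusted threshold. Without the term, the lowest p of the microtubule binding list in TDP-43 against wild type belonged to unc-119, needed for normal axons in the worm, at -0.42 ± 0.25 (unadjusted edgeR p 0.123). Next came zyg-8, a doublecortin-related kinase gene, at 0.30 ± 0.23, the CLASP gene cls-2 at 0.25 ± 0.20 and the MAP1-like gene maph-1.3 at 0.79 ± 0.81. The cilia list had positive differences for 14 of 42, 29 of 42 and 34 of 42 genes tested (medians -0.062, 0.18 and 0.22). With the term for the oocyte-poor libraries these counts were 11, 15 and 21 of 42 and the medians -0.100, -0.11 and -0.012, so both medians of TDP-43dNLS turned sign. Examples are the intraflagellar transport genes daf-10, at -0.55 ± 0.40 in TDP-43 against wild type, and osm-6, at 0.88 ± 0.55 in TDP-43dNLS against TDP-43, and the ciliary GTPase gene arl-13, at 1.12 ± 0.76 in TDP-43dNLS against wild type.

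The pan-neuronal list, of genes for synaptic release and neuropeptide processing, had positive differences for 0 of 15 genes in TDP-43 against wild type (median -0.25), 11 of 15 in TDP-43dNLS against wild type (median 0.11) and 14 of 15 in TDP-43dNLS against TDP-43 (median 0.40). With the term for the oocyte-poor libraries the counts were 0, 0 and 12 of 15 and the medians -0.30, -0.19 and 0.11, so TDP-43dNLS against wild type turned sign. An unadjusted edgeR p under 0.05 was then reached by 5, 1 and 0 of the 15, beside the 6.28%, 5.2% and 4.41% of all genes given above, and 0 passed the adjusted threshold. Without the term, the kinesin gene unc-104 stood at -0.52 ± 0.35 and the proprotein convertase gene egl-3 at -0.33 ± 0.31 in TDP-43 against wild type. The alpha gene mec-12 and the beta gene mec-7 encode tubulins used in touch receptor neurons, though not necessarily there alone. In the 8 libraries they stood at 83.8 to 122 and 52.1 to 87.9 CPM. In the 4 oocyte-poor ones they stood at 173 to 274 and 145 to 218 CPM. Their log2 differences in TDP-43 against wild type were 0.16 ± 0.45 and 0.40 ± 0.56. A list of 7 other touch receptor neuron genes summed to 34.9 to 50.6 CPM in the 8 libraries and 114.6 to 130.5 CPM in the 4. Positive differences were found for 5, 7 and 7 of these in the 3 comparisons (medians 0.076, 0.65 and 0.41). With the term the counts were 5, 3 and 2 (medians 0.032, -0.098 and -0.16), and 0 passed the adjusted threshold in either fit.

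For each member, the 3 genes with the most similar profile were found by Pearson's r of log2 CPM over the 8 libraries that were not oocyte-poor, among protein-coding genes with a mean of at least 5 CPM; these r values are a description over libraries that share strain and germ line content. Closest to tba-1 were let-70 (0.997), letm-1 (0.995) and tbb-1 (0.992), of which let-70 encodes a ubiquitin-conjugating enzyme. Closest to tbb-1 were miro-1 (0.993), pptr-2 (0.993) and tba-1 (0.992), so tba-1 and tbb-1 were each among the other's nearest 3. Closest to tba-2 were T26C12.1 (0.985), trr-1 (0.985) and rnp-5 (0.982), and to tbb-2 pop-1 (0.969), btbd-10 (0.96) and cey-4 (0.959). For tba-4 they were C25E10.5 (0.967), unc-62 (0.967) and mak-2 (0.966). The ciliary genes had F40F8.4 (0.992), dhs-9 (0.931) and ric-19 (0.92) for tba-5, C03A3.1 (0.964), cup-4 (0.954) and unc-41 (0.953) for tbb-4, Y41C4A.6 (0.946), spig-10 (0.94) and F15A4.5 (0.932) for tba-9 and ubxn-5 (0.907), ins-30 (0.904) and ztf-6 (0.895) for tba-6. Closest to tbb-6 were T23B12.11 (0.995), nlp-15 (0.992) and slc-17.5 (0.984). Each set of 3 was the top of 11008 or 11009 candidates over only 8 libraries, and such a pick can give high r values by itself. Whether any r exceeds that was not tested. For tba-6 the r values rest on 9 to 82 counts per library.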

How the data were processed

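The authors deposited raw read counts per gene for 12 libraries. Per the submitters' processing notes, the build was WBcel235 and the tools included featureCounts 2.20.0, STAR and R 4.4.2. The sources used here do not give the strand setting, the annotation release or the treatment of reads with several matches. Names, exons and coordinates came from Ensembl release 115, in which all 46926 identifiers matched. In R 4.3.3, genes were filtered with filterByExpr (minimum count 10), leaving 16637 genes with 99.9% of counts, scaled by TMM and tested with edgeR 4.0.16 (quasi-likelihood, robust, all 12 libraries, no covariate, Benjamini-Hochberg, threshold 0.05). CPM used TMM-adjusted library sizes (prior count 0.5 for log2 CPM), and RPKM the union of annotated exons. Shares were compared by exact permutation tests. Members, lists and the naming rule (all members; up to 4 genes per list with the lowest p; 3 most similar genes per member) were chosen with earlier results of these data known. Alternatives were DESeq2 size factors, other filters, the Wald test of DESeq2 1.42.0, a replicate block, a term for the oocyte-poor libraries, only the 8 other libraries, longest-transcript length and each library left out. The fit was also run on simulated counts, whose spread came from the fit with the term for the oocyte-poor libraries. The common dispersion, edgeR's measure of spread between libraries, was 0.137 in that fit and 0.435 as designed. No oocyte-poor division was simulated, so this run does not test the fit at the spread of these data. Same-numbered libraries of wild type and TDP-43 deviated together (correlations 0.223, 0.447, 0.444 and 0.795 for replicates 1 to 4), which met the rule used (each over 0.1). Libraries with different numbers were not correlated, and replicate 4 is the oocyte-poor library of both strains. The rule therefore cannot show that the numbers pair libraries, and the labels give no reason for a pairing. For TDP-43dNLS, replicate 3 was negative (-0.565 with wild type, -0.493 with TDP-43), so no pairing was taken there. That library is oocyte-poor, whereas replicate 3 of wild type and of TDP-43 is not. The negative values therefore cannot show that the numbers do not pair libraries.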

Additional observations from a re-analysis of the deposited data

Results flagged for a closer look

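In 4 of 45 groups of 4 libraries checked, 1 library lay far from the other 3 by Dixon's test at its 95% level; chance flags about 1 in 20 groups. For tba-4, TDP-43 replicate 4 stood at 7.84 log2 CPM (229 CPM), and the other TDP-43 libraries at 6.13 to 6.4. The share of tba-1 in tba-1 plus tba-2 was 38.7% in the same library and 32.5 to 33.5% in the other 3. Its alpha to beta ratio was 1.24, against 1.07 to 1.08. TDP-43 replicate 4 is the 1 oocyte-poor library of its strain, and the part of that in these values was not tested. In wild type the alpha to beta ratio was 1.16 in replicate 3, against 1.03 to 1.04 in replicates 1, 2 and 4; replicate 3 is not oocyte-poor.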

How the results depend on the processing

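The count of tubulin genes past the threshold was 0 in every comparison under every alternative run. With genes of 10 CPM in at least 4 libraries, tba-5 and tba-6 were not tested, as both stayed under 10 CPM in every library. Of all genes, 1 passed in TDP-43 against wild type as designed, and 21 with the DESeq2 Wald test, 16 with the term for the oocyte-poor libraries, 9 in the 8 other libraries, 0 with the replicate block and 0 with genes of 10 CPM in at least 4 libraries; a block with only those strains, chosen after seeing the data, gave 22. From 0 as designed, the counts were 16, 9 and 6 (DESeq2, term, 8 libraries) in TDP-43dNLS against wild type, and 8 (DESeq2) and 1 (term) in TDP-43dNLS against TDP-43. Leaving out each library gave 0 to 1 genes in the first comparison and 0 in the others. The replicate block changed no member's call. Differences of members were uncalled and often near 0. Under the alternatives other than leaving out each library, 186 kept their sign and 28 did not. These include the block with only the wild type and TDP-43 libraries. The cause was not tested. With DESeq2 size factors, the sign turned for tba-9 to 0.018 in TDP-43 against wild type, tba-4 to -0.011 in TDP-43dNLS against TDP-43. With no filter, the sign turned for tba-9 to 0.0067 in TDP-43 against wild type. With genes of 10 CPM in at least 4 libraries, the sign turned for tbb-2 to 0.020 and tba-9 to 0.013 in TDP-43dNLS against wild type, tba-9 to 0.025 in TDP-43dNLS against TDP-43. With the DESeq2 Wald test, the sign turned for tba-9 to 0.019 in TDP-43 against wild type, tba-4 to -0.011 in TDP-43dNLS against TDP-43. With the replicate block, the sign turned for tba-6 to -0.062 and tbb-4 to -0.012 in TDP-43 against wild type, tba-2 to -0.019 and tbb-1 to -0.0078 in TDP-43dNLS against wild type, tba-9 to 0.032 and tbb-4 to 0.048 in TDP-43dNLS against TDP-43. With the replicate block and only those strains, the sign turned for tba-6 to -0.078 in TDP-43 against wild type. With the term for the oocyte-poor libraries, the sign turned for tba-4 to -0.087 and tbb-4 to -0.22 in TDP-43dNLS against wild type, tba-4 to -0.18 in TDP-43dNLS against TDP-43. In the 8 libraries that were not oocyte-poor, the sign turned for tba-4 to -0.056, tba-5 to -0.061 and tbb-4 to -0.21 in TDP-43 against wild type, tba-4 to -0.050, tbb-2 to 0.096, tbb-4 to -0.28 and tbb-6 to -0.36 in TDP-43dNLS against wild type, tba-2 to 0.032, tba-9 to 0.12 and tbb-6 to -0.043 in TDP-43dNLS against TDP-43. In the 8 libraries the strain difference in composition turned sign for the alpha to beta ratio (-0.00376) in TDP-43 against wild type, the tba-1 share of tba-1 plus tba-2 (-1.62), the tba-4 share of alpha (-1.08) and the ciliary share (-0.117) in TDP-43dNLS against wild type, the tbb-1 share of tbb-1 plus tbb-2 (1.37), the tba-1 share of tba-1 plus tba-2 (-0.622), the tba-4 share of alpha (-0.103) and the alpha to beta ratio (0.0719) in TDP-43dNLS against TDP-43. Leaving out single libraries turned the sign within these ranges of log2 difference: tba-1 -0.098 to 0.079, tba-2 -0.18 to 0.16, tba-4 -0.019 to 0.51, tba-6 -0.31 to 0.29, tba-9 -0.12 to 0.024, tbb-1 -0.17 to 0.15, tbb-2 -0.077 to 0.043, tbb-4 -0.12 to 0.30 and tbb-6 -0.11 to 0.91 in TDP-43dNLS against wild type; tba-4 -0.36 to 0.49, tba-5 -0.40 to 0.54, tba-6 -0.20 to 0.56, tba-9 -0.26 to 0.15 and tbb-4 -0.41 to 0.45 in TDP-43 against wild type; tba-4 -0.23 to 0.59, tba-6 -0.61 to 0.090, tba-9 -0.18 to 0.23 and tbb-4 -0.34 to 0.55 in TDP-43dNLS against TDP-43. For composition the ranges were alpha to beta ratio -0.0631 to 0.00763, ciliary share -0.00796 to 0.287 and tba-4 share of alpha -0.183 to 3.49 in TDP-43dNLS against TDP-43; alpha to beta ratio -0.0159 to 0.0458, ciliary share -0.0308 to 0.196, tba-1 share of tba-1 plus tba-2 -1.07 to 2.0, tba-4 share of alpha -0.378 to 2.65 and tbb-1 share of tbb-1 plus tbb-2 -2.49 to 1.69 in TDP-43dNLS against wild type; ciliary share -0.195 to 0.0799, tba-1 share of tba-1 plus tba-2 -2.53 to 0.441, tba-4 share of alpha -2.15 to 0.97 and tbb-1 share of tbb-1 plus tbb-2 -0.13 to 4.01 in TDP-43 against wild type. Longest-transcript lengths turned no sign. Counts were lowest for tba-6 (9 to 82 per library) and tba-5 (46 to 208), where depth limits most what could be seen.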

Other observations

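Other tubulin genes of the count table also differed between the 8 libraries and the 4 oocyte-poor ones, in both directions. The gamma tubulin gene tbg-1, whose product nucleates microtubules at centrosomes, stood at 59.6 to 119.6 CPM in the 8 and 19.6 to 27.4 CPM in the 4, without overlap. The alpha gene tba-8 stood at 0.0523 to 1.84 against 6.31 to 19.4 CPM, also without overlap, and tba-7 at 17.3 to 37.8 against 29.3 to 57.8 CPM, with overlap. Of all genes tested, 46.9% did not overlap between the same libraries. These ranges were read after the values were seen and carry no test.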
